A study of Mus musculus with 45 samples.

Results

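Indian hedgehog, parathyroid hormone-related protein and the Hedgehog pathway were followed through 9 genes: the ligands Ihh and Pthlh, the receptors Pth1r and Ptch1, the transducer Smo, the Hedgehog-binding antagonist Hhip and the transcription factors Gli1, Gli2 and Gli3. They were taken by symbol from the deposited count tables, which hold 36300 genes in all, and all 9 were found in every table. The libraries came from forelimb buds of CD1 mouse embryos of gestation day 13, a stage at which the limb skeleton is laid down as cartilage. Forelimbs of male and female embryos were pooled and kept as organ cultures, and every culture received dimethyl sulfoxide (DMSO) alone as vehicle, or bisphenol A (BPA, a monomer of plastics and resins) at 10 or 50 µM. RNA was taken at 3, 24 or 48 h, which gives 9 groups of 5 libraries and 45 libraries in all. The labels do not tie the 5 libraries of each group to different litters or cultures. The p-values here reflect only the spread between the libraries used in each test. Since the cultures hold whole limbs of both sexes, no value belongs to 1 cell type or 1 sex.

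Ihh is secreted by prehypertrophic chondrocytes, the cells that have just left the dividing columns of the growth cartilage. It binds Ptch1, which otherwise holds Smo inactive; freed Smo lets Gli2 and Gli3 act as activators rather than repressors, and Ptch1, Hhip and Gli1 are themselves transcribed in response, so their RNA is commonly read as pathway output. Ihh also leads to expression of Pthlh near the joint ends; its product, PTHrP, binds Pth1r on dividing and prehypertrophic chondrocytes, signals through cyclic AMP and protein kinase A, and holds back hypertrophy and with it Ihh, closing a feedback loop.

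The promoters of Ihh and Hhip are shown because these 2 genes had the largest fold changes with BPA, in opposite directions. Each line gives the 250 bases before the RefSeq transcription start on the gene's own strand, build GRCm38.p6, with matches of the searched motifs, on either strand, in capitals. The motif TGACGTCA is the cyclic AMP response element and TGACG is its short form, which overlaps the full one. The letters ACCACA are the core bound by RUNX factors. The GLI consensus is GACCACCCA, and in the form GACCNCCCA it leaves 1 base free.
Ihh, chr1:74951673-74951922, minus strand: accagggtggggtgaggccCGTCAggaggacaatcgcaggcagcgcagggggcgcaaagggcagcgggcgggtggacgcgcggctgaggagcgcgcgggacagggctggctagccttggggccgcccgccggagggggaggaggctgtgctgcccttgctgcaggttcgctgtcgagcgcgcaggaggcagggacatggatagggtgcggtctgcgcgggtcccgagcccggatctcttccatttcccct
Hhip, chr8:80058009-80058258, minus strand: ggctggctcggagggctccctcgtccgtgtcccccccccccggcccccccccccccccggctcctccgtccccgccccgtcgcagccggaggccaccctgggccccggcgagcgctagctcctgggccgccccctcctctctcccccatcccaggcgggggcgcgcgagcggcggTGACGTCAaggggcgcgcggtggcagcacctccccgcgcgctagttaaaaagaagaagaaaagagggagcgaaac

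Of the 9 genes, 8 had an entry in the RefSeq promoter table, in 10 windows because Pth1r has 3 starts; Gli1 was not among them. The windows of Ihh and Hhip held 72.0% and 76.0% G or C. Ihh had TGACG on the opposite strand, 231 to 227 bases before the start, and Hhip had the full TGACGTCA at 75 to 68 bases. Among 32536 promoter windows of the same length, TGACGTCA occurred in 1.56% and TGACG in 17.9%. Neither GLI motif occurred in any of the 10 windows, against 0.218% and 0.864% of all promoters. At shares this low a match in 10 windows would be rare, so finding none says little about these genes. Pth1r had TGACG before 1 of its starts and Gli3 had ACCACA, a core found in 14.0% of promoters. These matches describe letters in a window, not binding.

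All 9 genes passed the filter on low counts in every comparison. Each library held 17.54 to 27.12 M counted reads, and the 9 genes had between 77 reads (Pthlh) and 8007 reads in a library. Levels are given as CPM (counts scaled to a common library size) after TMM scaling over the 45 libraries, as mean ± SD of 5 libraries, and levels are compared between genes per kilobase of deposited gene length. In vehicle at 3 h, the level per kilobase was highest for Smo, at 43.7 ± 0.912 CPM per kb, and Pth1r, at 39.6 ± 4.61, whose spreads overlapped. Gli3 followed at 28.8 ± 3.75 CPM per kb, Gli2 at 19.7 ± 1.94, Gli1 at 14.7 ± 1.73 and Ptch1 at 9.59 ± 0.572. The ligand Ihh stood at 7.14 ± 0.920 CPM per kb, and Hhip and Pthlh were the lowest, at 4.61 ± 0.792 and 4.23 ± 0.706, within each other's spread.

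By 48 h in vehicle, Smo and Pth1r were still the highest, at 52.0 ± 2.19 and 47.2 ± 6.04 CPM per kb, and Gli1 had moved above Gli3, at 28.9 ± 2.67 against 17.0 ± 1.62. Ptch1, Gli3 and Gli2 lay close together at 17.9 ± 0.488, 17.0 ± 1.62 and 16.5 ± 0.856 CPM per kb. Ihh came next at 13.1 ± 1.69, then Hhip at 8.17 ± 0.404 and Pthlh at 6.20 ± 1.11. The other Hedgehog ligands were near the limit of detection: no library held more than 13 reads of Shh or 22 of Dhh. The strand of the RNA is not known to have been used in counting, and Arhgap9, on the opposite strand across Gli1, had at most 212 reads where Gli1 had at least 805.

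**Figure D1:**
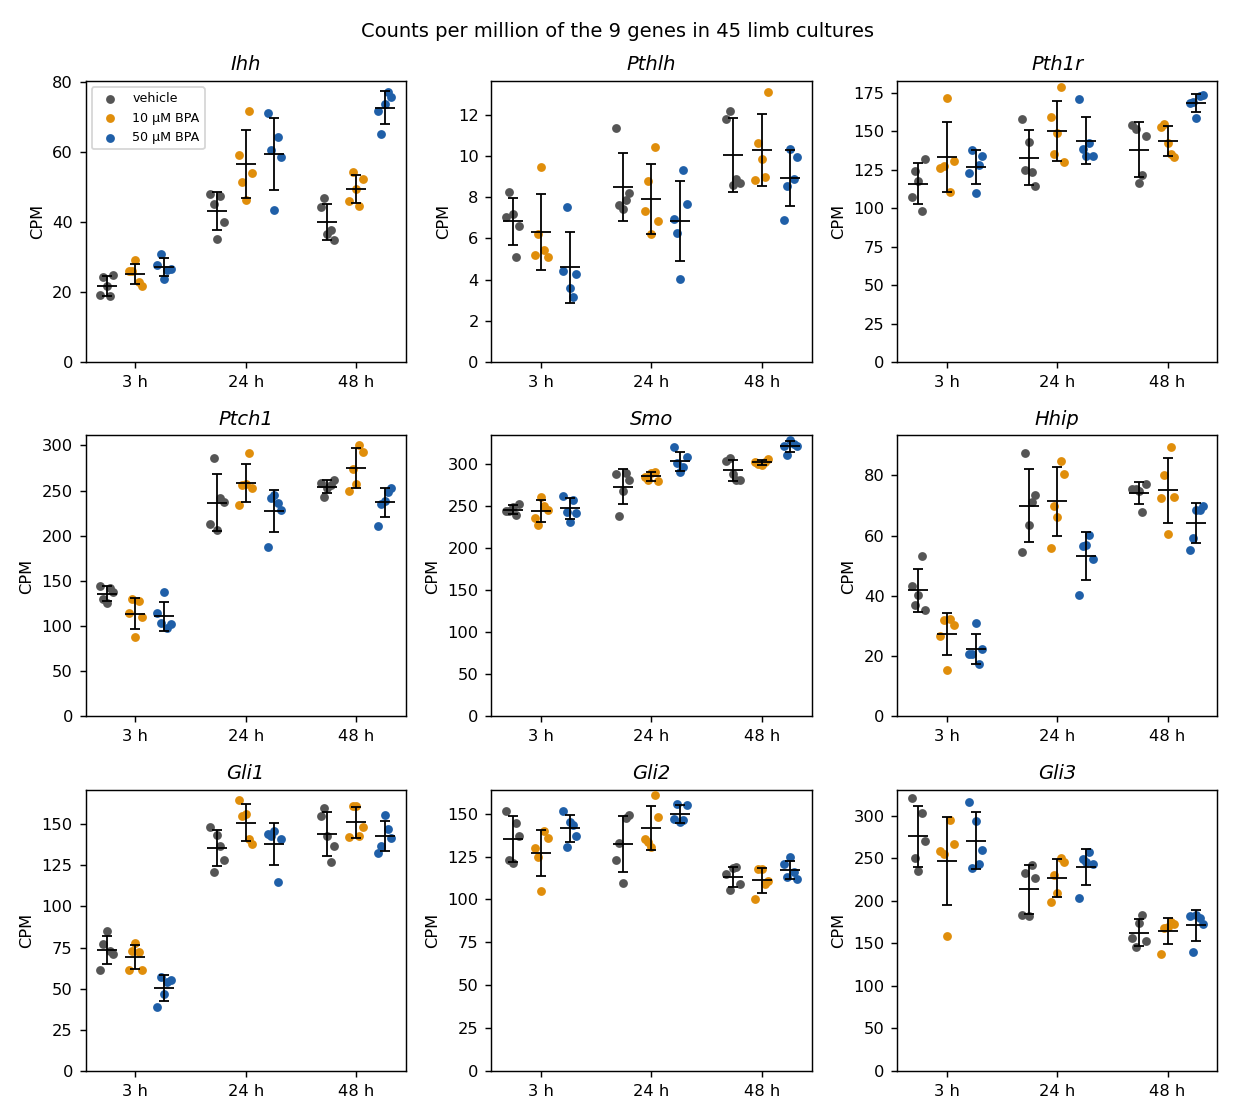
CPM of each of the 9 genes (vertical axes, linear from 0) in the 45 libraries, by culture time and dose; points are libraries, long bars the group means and error bars 1 SD (n = 5). The 50 µM libraries of 48 h sit above all vehicle libraries for Ihh, Pth1r and Smo, and the 50 µM libraries of 3 h below all vehicle libraries for Hhip and Gli1.

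In vehicle alone, the ligand and the response genes rose together between 3 and 24 h of culture. Of the 9 genes, 4 rose and 1 fell by edgeR's quasi-likelihood test at a Benjamini-Hochberg adjusted p under 0.05, a threshold that 30% of 17081 genes passed, 16.3% higher and 13.8% lower; 21.7% had groups that did not overlap. Ihh rose 1.99-fold (log2 1.00 ± 0.11, SE; adjusted p = 6.23e-06), from 21.8 ± 2.80 to 43.1 ± 5.43 CPM. Gli1, the factor most dependent on Hedgehog input for its own transcription, rose 1.86-fold (adjusted p = 1.87e-06), from 73.5 ± 8.62 to 136 ± 11.1 CPM. Ptch1 rose 1.75-fold and Hhip 1.68-fold (adjusted p = 3.25e-06 and 0.000347). For these 4 genes the 3 h and 24 h vehicle libraries did not overlap. Gli3, mainly a repressor where Hedgehog is low, fell by 0.36 ± 0.10 on the log2 scale (adjusted p = 0.0119). Smo differed by 0.16 ± 0.06 (adjusted p = 0.0577), and without vehicle replicate 2 of 24 h by 0.21 (adjusted p = 0.0120). In bulk RNA, a change in the number of cells of a type and a change in RNA per cell cannot be told apart.

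From 24 to 48 h in vehicle, Gli3 fell further, by 0.40 ± 0.09 (adjusted p = 0.012), the only one of the 9 genes called where 8.45% of 16940 genes were, 3.02% lower. Gli2 gave -0.23 ± 0.08 (adjusted p = 0.0868); without vehicle replicate 3 of 24 h it gave -0.29 (adjusted p = 0.0201), and DESeq2 also called it (adjusted p = 0.0495). Between 3 and 48 h all 9 genes passed, 7 higher and 2 lower, where 46.7% of 16905 genes passed, 23.9% higher and 22.9% lower; the median log2 fold change was 0.56 over the 9 genes and -0.01 over all genes. For 8 of the 9 the 3 h and 48 h libraries did not overlap, against 33.9% of all genes. Pthlh rose by 0.56 ± 0.16 (adjusted p = 0.00732), Smo by 0.26 ± 0.05 (0.000934) and Gli1 by 0.98 ± 0.09 (1.12e-07). Gli3 fell by 0.76 ± 0.09 (4.06e-06) and Gli2 by 0.25 ± 0.07 (0.0101). The rise of Pth1r was 0.26 ± 0.09 (adjusted p = 0.0288), and was not called when replicate 1 or 4 of 3 h or replicate 1, 2 or 5 of 48 h was left out (log2 0.21 to 0.24, adjusted p = 0.0645 to 0.0780), nor with upper-quartile scaling.

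With 50 µM BPA, different genes of the 9 were called at 3 h and later. At 3 h the response genes Hhip and Gli1 fell, the only 2 of 9 called where 1.41% of 16988 genes were called, 0.518% of them lower; both also had groups that did not overlap, as 4.07% of genes did. At 24 h Ihh alone rose, where 3.47% of 16841 genes were called and 1.37% higher. At 48 h Ihh and Pth1r rose, where 9.18% of 16732 genes were called and 3.88% higher (1536 genes, and 2598 with the replicate number as a block). The medians over the 9 genes stayed near those over all genes: -0.04, 0.11 and 0.04 on the log2 scale at 3, 24 and 48 h, against -0.00 for all genes each time. An unadjusted p under 0.05 was reached by 5, 4 and 4 of the 9, and by 2155, 2652 and 3830 of all genes.

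**Figure D2:**
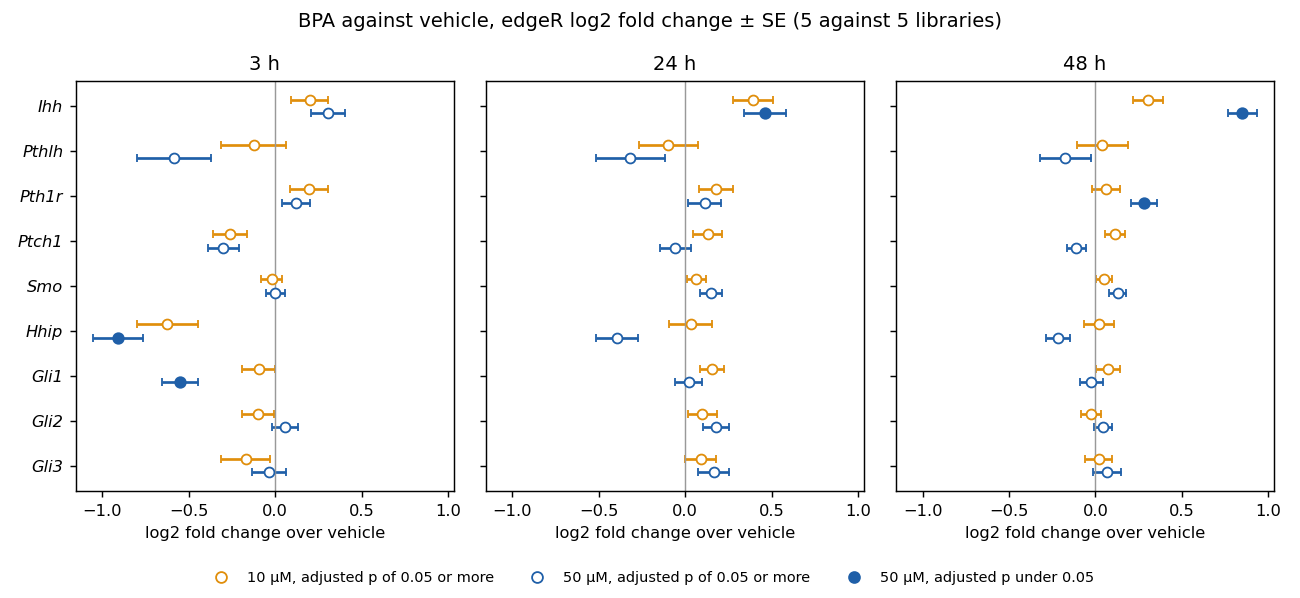
Log2 fold change of BPA over vehicle for each gene (horizontal axes) at 3, 24 and 48 h; circles are edgeR estimates from 5 against 5 libraries, error bars 1 SE, and filled circles have an adjusted p under 0.05. Hhip and Gli1 lie left of 0 at 3 h with 50 µM, and Ihh lies right of 0 with 50 µM at 24 and 48 h.

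Of the 2 ligands, Ihh passed the test with 50 µM BPA. At 3 h its CPM was 19.2, 24.4, 21.6, 18.8 and 24.8 in vehicle replicates 1 to 5 and 27.7, 30.9, 23.7, 26.3 and 26.6 with 50 µM BPA. The groups overlapped, and the difference of 0.31 ± 0.10 did not pass (adjusted p = 0.167). At 24 h it was 48.0, 45.1, 35.2, 47.3 and 40.0 in vehicle and 71.1, 60.5, 43.3, 64.2 and 58.5 with 50 µM BPA. In 4 of the 5 treated libraries Ihh was above every vehicle library, and replicate 3 fell within the vehicle range. Ihh rose 1.38-fold (log2 0.46 ± 0.12, adjusted p = 0.0477). This call was close to the threshold: without any 1 of vehicle replicates 2, 3, 4 or 5 or 50 µM replicates 1, 2, 4 or 5 the adjusted p was 0.0693 to 0.126 with a log2 difference of 0.39 to 0.50. Of the 9 alternatives that left out no library, 8 called Ihh, and upper-quartile scaling did not (adjusted p = 0.0502).

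The clearest response was at 48 h, where Ihh was 44.2, 46.8, 36.7, 37.8 and 34.8 CPM in vehicle and 71.8, 65.2, 73.6, 77.1 and 75.8 with 50 µM BPA. Every treated library lay above every vehicle library. Ihh rose 1.8-fold (log2 0.85 ± 0.08, adjusted p = 2.73e-05), and the call held without each of the 10 libraries in turn (adjusted p at most 0.000167). In vehicle, Ihh had not risen further between 24 and 48 h (log2 -0.11 ± 0.10, adjusted p = 0.607), with means of 43.1 ± 5.43 and 40.1 ± 5.16 CPM, while the 50 µM means were 59.5 ± 10.3 and 72.7 ± 4.65. The change in the 50 µM effect from 24 to 48 h was 0.39 ± 0.16 (unadjusted p = 0.0152, adjusted p = 1), and from 3 to 48 h 0.55 ± 0.16 (adjusted p = 0.0583). The latter passed in 6 of the 20 fits that left out 1 library: without 50 µM replicate 2 of 3 h or of 48 h, vehicle replicate 1 or 4 of 3 h, or vehicle replicate 1 or 2 of 48 h (log2 0.59 to 0.61, adjusted p = 0.0316 to 0.0480).

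Pthlh, which encodes PTHrP, was not called at any time with 50 µM BPA. At 3 h it was 7.03, 8.26, 7.21, 5.10 and 6.63 CPM in vehicle and 4.43, 7.55, 3.61, 3.15 and 4.26 with 50 µM BPA. In 4 of 5 treated libraries Pthlh was below every vehicle library, and replicate 2 was among the vehicle values. The difference was -0.58 ± 0.21 (adjusted p = 0.24); without that replicate it was -0.83 (adjusted p = 0.0373). At 24 and 48 h the differences were -0.32 ± 0.20 and -0.17 ± 0.15 (adjusted p = 0.486 and 0.538), with overlapping groups.

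Pth1r, the receptor of PTHrP, was 154, 151, 116, 122 and 147 CPM in vehicle at 48 h and 169, 169, 159, 173 and 173 with 50 µM BPA. The 2 groups did not overlap; 9.13% of genes had non-overlapping groups in this comparison. Pth1r rose 1.21-fold (log2 0.28 ± 0.08, adjusted p = 0.0292). Leaving out vehicle replicate 3 or 4 or 50 µM replicate 4 or 5 ended the call (log2 0.22, 0.24, 0.27 and 0.27; adjusted p = 0.0579, 0.0698, 0.0701 and 0.0676). Pth1r was also not called at 48 h with all 45 libraries in 1 fit (adjusted p = 0.0669). At 3 and 24 h Pth1r gave 0.12 ± 0.08 and 0.11 ± 0.09 (adjusted p = 0.602 and 0.638).

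Among the Hedgehog receptors, Ptch1, at once receptor and target, leaned downward at 3 h without passing. Its CPM was 144, 129.8, 125, 142 and 138 in vehicle and 114, 103, 137, 97.8 and 102 with 50 µM BPA. In 4 of 5 treated libraries Ptch1 was below every vehicle library, and replicate 3 was within the vehicle range. The difference was -0.30 ± 0.09 (adjusted p = 0.124); without that replicate it was -0.39 (adjusted p = 0.00795), and DESeq2 called it on all libraries (adjusted p = 0.0404). At 24 and 48 h the differences were -0.06 ± 0.09 and -0.11 ± 0.05 (adjusted p = 0.835 and 0.237).

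Smo, the transducer that Ptch1 restrains, gave similar means in both groups at 3 h. It was 246 ± 5.13 CPM in vehicle and 247 ± 12.4 with 50 µM BPA, a log2 difference of 0.00 ± 0.06. At 24 h Smo was 288, 239, 267, 289 and 281 CPM in vehicle and 319.6, 301, 291, 296 and 308 with 50 µM BPA, and at 48 h 303, 307, 288, 281 and 281 and 321, 311, 329, 324 and 321. The groups did not overlap at either time, and Smo was the only one of the 9 genes without overlap at 24 h, where 5.04% of genes had none. The differences were small, 0.15 ± 0.06 at 24 h and 0.13 ± 0.05 at 48 h, and did not pass (adjusted p = 0.249 and 0.113). Smo was called at 24 h with all 45 libraries in 1 fit (adjusted p = 0.0409) and at 48 h by DESeq2 (adjusted p = 0.0381).

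Hhip, which binds Hedgehog ligands at the cell surface and limits their reach, had the largest fall of the 9 genes. At 3 h it was 43.4, 37.0, 40.2, 53.4 and 35.2 CPM in vehicle and 20.8, 20.6, 30.8, 17.4 and 22.4 with 50 µM BPA. Every treated library was below every vehicle library. Hhip was 1.88-fold lower (log2 -0.91 ± 0.15, adjusted p = 0.00265), and the call held without each library in turn (adjusted p at most 0.0121). At 24 h it was 54.6, 87.3, 63.4, 71.0 and 73.5 CPM in vehicle and 40.2, 56.7, 56.9, 60.2 and 52.1 with 50 µM BPA, and the groups overlapped. The difference of -0.40 ± 0.12 did not pass (adjusted p = 0.101); it passed without vehicle replicate 1 (log2 -0.46, adjusted p = 0.0324) and with DESeq2 (adjusted p = 0.0309).

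By 48 h Hhip was 75.4, 75.6, 74.7, 67.8 and 77.2 CPM in vehicle and 55.1, 59.0, 68.4, 68.4 and 69.7 with 50 µM BPA. The groups touched only through vehicle replicate 4, at 67.8 CPM. The difference was -0.22 ± 0.07 (adjusted p = 0.0659); it passed without that replicate (log2 -0.25, adjusted p = 0.0492) and with the replicate number as a block, a pairing that the data bear out at 48 h (adjusted p = 0.0285). The change in the effect from 3 to 48 h was 0.69 ± 0.21 (adjusted p = 0.0766), and 0.83 without 50 µM replicate 3 of 3 h (adjusted p = 0.0166).

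Gli1 fell at 3 h. It was 61.3, 77.2, 84.8, 73.0 and 71.2 CPM in vehicle and 38.7, 57.2, 46.8, 54.3 and 55.1 with 50 µM BPA. Every treated library was below every vehicle library. Gli1 was 1.46-fold lower (log2 -0.55 ± 0.10, adjusted p = 0.0113), and the call held without each library in turn (adjusted p at most 0.0458). At 24 h it was 148, 121, 144, 136 and 128 CPM in vehicle and 144, 143, 146, 115 and 141 with 50 µM BPA, and at 48 h 155, 159.7, 143, 127 and 137 and 132, 137, 156, 147 and 141. The groups overlapped at both times, with differences of 0.02 ± 0.08 and -0.02 ± 0.07 (adjusted p = 0.938 and 0.881). The effect itself differed between times, by 0.57 ± 0.12 from 3 to 24 h (adjusted p = 0.0124) and by 0.53 ± 0.12 from 3 to 48 h (adjusted p = 0.0101). Of all 19259 genes, 0.592% and 1.96% passed these tests, and Gli1 was the only one of the 9 to pass either. With only the 4 groups concerned in the fit, the first gave an adjusted p of 0.0531. From 24 to 48 h 0% of genes passed by edgeR, none of the 9 by DESeq2, and 1 of the 9, Ihh, at an unadjusted p under 0.05.

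Gli2 and Gli3, the factors that carry most of the Hedgehog signal as activator and repressor, did not pass at any time with 50 µM BPA. Epidermal RNA differed widely between libraries of 1 group: Krt14, an epidermal keratin, ranged from 15.2 to 435 CPM in vehicle at 24 h. With the mean log2 CPM of 14 epidermis markers as a covariate, Gli2 passed at 24 h (log2 0.23, adjusted p = 0.0381). Within groups this mean correlated most strongly with Gli2 (r = -0.50), Gli3 (-0.49) and Pth1r (0.42). Gli2 ranged from 121 to 151 CPM in vehicle and 131 to 152 with 50 µM at 3 h, and from 109.6 to 149 and 145 to 156 at 24 h. Its largest difference was 0.18 ± 0.08 at 24 h (adjusted p = 0.271). Gli3 ranged from 235 to 321 and 239 to 317 CPM at 3 h, with differences of -0.04 ± 0.10, 0.16 ± 0.09 and 0.07 ± 0.08 at 3, 24 and 48 h. Between 3 and 48 h the mean of Gli3 went from 271 ± 33.7 to 172 ± 18.3 CPM with 50 µM and from 276 ± 36.0 to 163 ± 15.6 in vehicle.

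Long and short genes moved apart between libraries of 1 group, and several of the 9 genes moved with them. The contrast used was the mean log2 CPM of genes in the top quartile of length minus that of genes in the bottom quartile. Within groups, over 45 libraries, it correlated with Gli3 (r = 0.84), Ptch1 (0.82), Hhip (0.82) and Gli2 (0.61), and negatively with Pth1r (-0.81), Gli1 (-0.58), Smo (-0.55), Ihh (-0.49) and Pthlh (-0.46); libraries share depth and composition, so these are descriptions. At 3 h the contrast ran from 3.63 to 3.89 in vehicle and from 3.63 to 3.95 with 50 µM BPA. With it as a covariate at 3 h, Hhip gave -0.90 (adjusted p = 5.9e-06) and Gli1 -0.57 (adjusted p = 0.000253), and Ptch1 and Ihh passed as well (adjusted p = 0.0021 and 0.0444). At 24 h, Ihh and Hhip then passed (adjusted p = 0.013 and 0.00033). At 48 h Ihh, Pth1r and Smo passed (adjusted p for Smo = 0.0393).

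Without the replicate block, none of the 9 genes was called at 10 µM BPA by edgeR or DESeq2. edgeR called 0%, 0% and 0.00591% of all genes at 3, 24 and 48 h, and at an unadjusted p under 0.05 there were 2, 2 and 1 of the 9 (974, 786 and 980 of all genes); DESeq2 called 14, 17 and 51 genes. With the replicate number as a block, edgeR called 95 genes at 24 h, Ihh among them, and 37 at 48 h, none of them among the 9. These comparisons use the same vehicle libraries as those at 50 µM. Hhip at 3 h was 26.7, 31.9, 15.4, 32.5 and 30.2 CPM with 10 µM BPA, all below the vehicle values given above; 1.12% of genes had groups that did not overlap. Its difference was -0.62 ± 0.18 (unadjusted p = 0.00336, adjusted p = 0.7), and at 24 and 48 h 0.03 ± 0.12 and 0.02 ± 0.09. Ptch1 at 3 h gave -0.26 ± 0.10, and Gli1 -0.10 ± 0.10 (adjusted p = 0.7 and 0.753).

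Ihh with 10 µM BPA was 59.1, 51.3, 46.2, 71.8 and 53.9 CPM at 24 h and 46.1, 54.4, 49.5, 44.7 and 52.2 at 48 h. Both groups overlapped those of vehicle, by vehicle replicates 1 and 4 against 10 µM replicate 3 at 24 h and by vehicle replicate 2 at 48 h. The share of all genes without overlap was 0.838% and 1.26%. The differences were 0.39 ± 0.11 and 0.30 ± 0.09 (adjusted p = 0.862 and 0.531), after 0.20 ± 0.11 at 3 h. With the replicate number as a block, a pairing less certain at 48 h, where the library codes of 10 µM replicates 1 and 2 are exchanged against the titles, Ihh passed at 24 h (adjusted p = 0.00523) and not at 48 h (0.164).

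Set against each other, the 2 doses differed for Gli1 at 3 h and for Ihh at 48 h. With all 45 libraries in 1 fit, Gli1 at 3 h was 61.1, 73.0, 77.7, 72.4 and 61.5 CPM with 10 µM against the 50 µM values above, without overlap. It was 1.37-fold lower with 50 µM (log2 -0.46 ± 0.09, adjusted p = 0.00274), where 0.618% of genes were called and 1.81% did not overlap; with only these 10 libraries in the fit the adjusted p was 0.224. Hhip differed by -0.29 ± 0.15 (adjusted p = 0.499). At 24 h edgeR called none of the 9 (0.789% of all genes; 2 of the 9 at an unadjusted p under 0.05) and neither did DESeq2. At 48 h Ihh was 1.47-fold higher with 50 than with 10 µM (log2 0.56 ± 0.11, adjusted p = 0.000858), where 3.14% of genes were called. Ihh, Pth1r and Smo had no overlap between the doses at 48 h, as 4.41% of genes did not. Pth1r gave 0.23 ± 0.10 (adjusted p = 0.282; 0.0322 with only these 10 libraries).

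**Figure D3:**
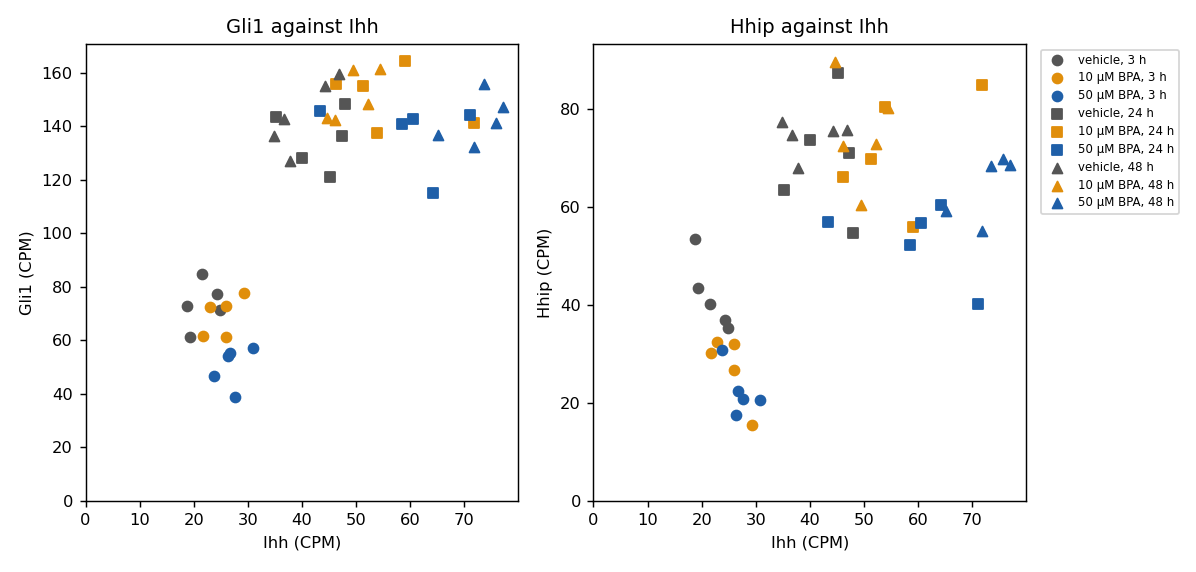
Gli1 (left) and Hhip (right) against Ihh, all in CPM on linear axes from 0; each point is 1 of 45 libraries, coloured by dose and shaped by time. At 48 h the 50 µM libraries reach 65.2 to 77.1 CPM of Ihh with Gli1 and Hhip no higher than in vehicle on average.

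Ihh was set against its response genes over libraries and within groups. Over the 45 libraries the log2 CPM of Ihh correlated with that of Gli1 (r = 0.80) and of Hhip (r = 0.62), and both values hold the differences between times. After removing the group means, r was 0.19 and -0.30. Within groups Ptch1 went with Hhip (r = 0.85) and Gli2 with Gli3 (r = 0.82), pairs that also share their relation to gene length given above. Gli1 and Ptch1 correlated over all libraries (r = 0.90) and negatively within groups (r = -0.41). The pairs with a negative r had opposite relations to gene length within groups: Ihh -0.49 and Hhip 0.82, Gli1 -0.58 and Ptch1 0.82. The part of gene length in these negative values was not tested. Ihh and Pthlh correlated within groups (r = 0.72) more than over all libraries (r = 0.55). At 48 h with 50 µM BPA, mean Ihh was 72.7 ± 4.65 CPM against 40.1 ± 5.16 in vehicle, while Gli1 was 143 ± 9.16 against 144 ± 13.3, Ptch1 237 ± 16.2 against 255 ± 6.92 and Hhip 64.1 ± 6.63 against 74.2 ± 3.66.

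The genes whose log2 CPM was most like that of Ihh over the 45 libraries, of 12652 protein-coding genes compared, were Rflna (r = 0.95), Dkk3 (0.95), Fgfr3 (0.93), Jdp2 (0.93) and Fam53b (0.93); within groups r was 0.69, 0.62, 0.29, 0.58 and 0.35. For Gli1, Abcc3 (r = 0.96; 0.61 within groups), Slc11a1, Arhgef1 and Col27a1 were among the 5 closest. For Hhip they were Runx2, a chondrocyte and osteoblast factor (r = 0.96; 0.83 within groups), Ptch1 (0.95; 0.85), Abca1, Plekhh2 and Pdlim5. Pth1r had no neighbour as close: Ergic3 (r = 0.85; 0.75 within groups) was first, then Trp53i13, Bsg, Rhoc and Cd151. All of these correlations include the shared differences between times.

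Other genes of the pathway were read from 5 lists. With 50 µM BPA, edgeR called 1.41%, 3.47% and 9.18% of all genes at 3, 24 and 48 h. Of the Hedgehog ligands, release factors and co-receptors (17 genes), 1 of 13 tested passed with 50 µM BPA at 24 h: Scube1, which helps release Hedgehog from cells, was 1.41-fold higher (adjusted p = 0.00116). At 48 h 3 of 14 were higher and 1 lower. Scube1 was 1.57-fold higher and the co-receptor Cdon 1.20-fold higher, at 507 ± 10.4 against 422 ± 10.6 CPM (adjusted p = 0.00163). Scube3 was 1.16-fold higher and Hhat, which attaches palmitate to the ligand, 1.34-fold lower (adjusted p = 0.0470). The median log2 fold change of the list was 0.02, 0.01 and 0.08 at 3, 24 and 48 h.

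The transduction and Gli-processing list (23 genes, all tested) had 0 calls by edgeR or DESeq2 at 3 h, and 2 genes at an unadjusted p under 0.05. Its single call at 24 h and at 48 h was Prkaca, the catalytic subunit of protein kinase A, a negative regulator of Gli activation and an effector of Pth1r. Prkaca was 188 ± 7.44 against 224 ± 19.8 CPM at 24 h (1.20-fold lower, adjusted p = 0.0410) and 191 ± 13.5 against 285 ± 18.2 CPM at 48 h (log2 -0.58 ± 0.06, adjusted p = 3.3e-05). In vehicle Prkaca had risen between 24 and 48 h, and its effect differed between 3 and 48 h (log2 -0.73 ± 0.10, adjusted p = 1.04e-05). The PTHrP list (30 genes) had 0 of 29 calls at 3 h by either tool (3 at an unadjusted p under 0.05), 1 of 28 at 24 h and 2 of 28 at 48 h by edgeR, all lower. Besides Prkaca the second at 48 h was Mef2c, a factor of hypertrophy and of muscle, at 234 ± 30.6 against 362 ± 67.6 CPM (1.55-fold lower, adjusted p = 0.00267). Both lists stand beside 1.41%, 3.47% and 9.18% of all genes called at 3, 24 and 48 h.

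Of 25 genes known to respond to Hedgehog in some tissue, those called at 3 h with 50 µM BPA included Snai1 and Tbx3, which rose, and Bcl2, which fell. Bcl2, a survival factor, was 55.7 ± 5.24 against 81.3 ± 7.68 CPM (1.47-fold lower, adjusted p = 0.00181). Snai1, a repressor of epithelial genes, was 101 ± 3.27 against 52.2 ± 1.09 CPM (1.92-fold higher, adjusted p = 1.09e-07), and Tbx3 1.23-fold higher (adjusted p = 0.0333). At 24 h 1 rose (Snai1) and 2 fell (Osr2 and Bcl2) of 24 tested. At 48 h 4 rose and 2 fell of 25: Foxc1 was 1.34-fold and Snai1 1.37-fold higher, and Osr2 and Bcl2 were 1.45-fold and 1.24-fold lower. The other 2 that rose were Ccnd2, a cyclin of the G1 phase, and the growth factor Igf1, 1.21-fold and 1.26-fold higher. Of all genes, 1.41%, 3.47% and 9.18% were called at 3, 24 and 48 h. The list did not move in 1 direction, with medians of 0.04, 0.08 and 0.09.

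Among 30 regulators and neighbours of Ihh in cartilage, 4 rose and 1 fell of 29 tested at 3 h with 50 µM BPA. At 24 h 4 rose of 30, and at 48 h 10 rose and 4 fell of 30. The shares of all genes called at these times were 1.41%, 3.47% and 9.18%. The gene with the smallest p at 24 and 48 h was Fgfr3, a receptor that slows chondrocyte division. Fgfr3 was 151 ± 11.9 against 106 ± 9.80 CPM at 3 h (1.41-fold higher, adjusted p = 0.00145), 355 ± 27.0 against 191 ± 11.6 at 24 h (1.85-fold, 2.4e-05) and 430 ± 28.5 against 222 ± 22.5 at 48 h (1.92-fold, 5e-06). Its ligand Fgf18 was 1.41-fold higher at 3 h (adjusted p = 0.00779), and Cyp26b1, which degrades retinoic acid, 1.41-fold higher (adjusted p = 0.000829). Msx2, a BMP-responsive factor, was 1.54-fold higher at 3 h and 1.88-fold at 48 h. The 1 that fell at 3 h was Nog, which encodes the BMP antagonist noggin, 1.44-fold lower (adjusted p = 0.0439). At 24 h Atf4 and the BMP receptor Bmpr1b were 1.30-fold and 1.24-fold higher. Mef2c, Fgf18, Runx3 and Trps1 were the 4 that fell at 48 h. Tgfb2, a ligand of the TGF-beta family, was 1.18-fold higher at 24 h and 1.31-fold at 48 h. Fgfr3 was also higher with 50 than with 10 µM at each time (1.24-, 1.42- and 1.45-fold; adjusted p = 0.0215, 0.00011 and 1.14e-06). At 10 µM none of the 5 lists had a call by edgeR; at an unadjusted p under 0.05 there were 15 of 111, 20 of 109 and 21 of 111 distinct genes at 3, 24 and 48 h, and DESeq2 called 1, 3 and 5.

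In vehicle between 3 and 48 h, where 46.7% of all genes were called, 23.9% higher and 22.9% lower, 8 of 13 ligand, release and co-receptor genes rose and 3 fell, among them Boc (1.68-fold higher) and Scube2 (2.81-fold), with Scube1 1.65-fold lower. Of the 23 transduction genes 2 rose and 10 fell. Of 28 PTHrP genes 12 rose and 2 fell, among them Mef2c at 2.65-fold and Nkx3-2, a factor that delays hypertrophy, at 1.83-fold higher. Of 24 Hedgehog-responsive genes 9 rose and 10 fell, with Tbx3 and Mycn 2.72-fold and 2.79-fold lower and Igf1 2.37-fold higher. Of 30 regulators of Ihh 17 rose and 7 fell, with Sp7 3.97-fold higher and Msx2 5.94-fold lower.

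Markers of the cartilage and of some other cell types moved in the same comparisons. The endothelium, epidermis and erythroid markers tested had no call by edgeR or DESeq2 with 50 µM BPA at 3, 24 or 48 h. At an unadjusted p under 0.05 there were 4 endothelium markers at 24 h and 1 erythroid marker at 48 h. With 50 µM BPA, 1.41%, 3.47% and 9.18% of all genes were called at 3, 24 and 48 h. The summed level of 18 chondrocyte markers was 5700.2 ± 550.5 CPM in vehicle at 3 h, 14104 ± 965 at 24 h and 21319 ± 2771 at 48 h. With 50 µM BPA it was 5765 ± 424, 14646 ± 1061 and 24406 ± 2631 CPM; 0 of 17 markers were called at 3 h by edgeR or DESeq2 (1 at an unadjusted p under 0.05). At 24 h Matn3 fell by 0.59 ± 0.13 on the log2 scale (adjusted p = 0.0202), and at 48 h Sox9 was 1.18-fold higher and Ucma 5.35-fold lower (adjusted p = 0.0240 and 0.000557). Of 15 prehypertrophic and hypertrophic markers (13 tested at 3 h), Fgfr3 rose at 3, 24 and 48 h. Col10a1 and Ibsp fell at 24 h, and Mef2c and Runx3 fell at 48 h. Col10a1, the collagen of hypertrophic cartilage, was 15.3 ± 4.62 against 51.8 ± 27.1 CPM at 24 h (log2 -1.76, adjusted p = 0.0037). At 48 h it was 143 ± 94.7 against 165 ± 62.5 CPM and not called (log2 -0.22, adjusted p = 0.753). Of 17 skeletal muscle markers tested, 11 were lower at 24 h and 15 at 48 h, when their sum was 2949.7 ± 508 CPM against 6205 ± 1119 in vehicle. Of 14 macrophage markers, 3 and 6 were lower. Of 12 perichondrium and osteoblast markers, Ifitm5 and Tnn were lower at 24 h; at 48 h these 2, Col1a1, Col1a2 and Postn were lower and Dlx5 higher, with a sum of 9956 ± 1459 CPM against 12697 ± 1386 in vehicle. Of 15 limb mesenchyme and tendon markers, Fmod, Osr2 and Tnmd were lower at 24 and 48 h, and Msx2 was higher at 3 and 48 h. The part of these shifts in the Ihh and Hhip results was not tested.

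The log2 CPM of 6 of the genes was also taken relative to the mean log2 CPM of the 18 chondrocyte markers. Groups were compared with an exact two-sided permutation test (5 against 5 libraries, smallest p 0.00794, 54 tests adjusted together). The 54 included the tests between vehicle times, all of which had the smallest p. Their presence lowers the adjusted p of the BPA tests, which were not adjusted on their own. Each marker had equal weight in this mean, so it can move apart from the summed level above. By edgeR, Ucma was 3.83-fold lower at 24 h and 5.35-fold lower at 48 h with 50 µM BPA (adjusted p = 0.0542 and 0.000557). With 10 µM it was 2.23-fold and 1.70-fold lower and not called. The part of such markers in the differences below was not tested. Relative to the marker mean, Ihh was higher with 50 µM BPA by 0.60 at 24 h and by 0.94 at 48 h (adjusted p = 0.0195 for both). Ihh was also higher with 10 µM, by 0.49 at 24 h and 0.35 at 48 h (unadjusted p = 0.0159 and adjusted p = 0.0343 for both). At 3 h with 50 µM, Hhip differed by -0.98 (adjusted p = 0.0195), Gli1 by -0.62 (adjusted p = 0.0343) and Pthlh by -0.68 (adjusted p = 0.0495). Gli1 was higher by 0.26 with 10 µM at 24 h (adjusted p = 0.0195). Pth1r at 48 h with 50 µM differed by 0.38 (adjusted p = 0.0635).

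In vehicle, all 6 genes declined relative to the mean of the chondrocyte markers between 3 and 48 h, although 6 of 6 rose in CPM. The differences were -1.53 for Ihh, -1.87 for Pthlh, -2.16 for Pth1r, -1.51 for Ptch1, -1.44 for Gli1 and -1.57 for Hhip (adjusted p = 0.0195 each). With 50 µM BPA the relative level of Ihh was -2.36 ± 0.28 at 48 h, against -3.30 ± 0.08 in vehicle and -2.95 ± 0.16 with 10 µM. In all, 26 of the 54 tests had an adjusted p under 0.05, among them every test of the 6 genes between vehicle times. With Col2a1 alone as the reference there were 31.

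**Figure D4:**
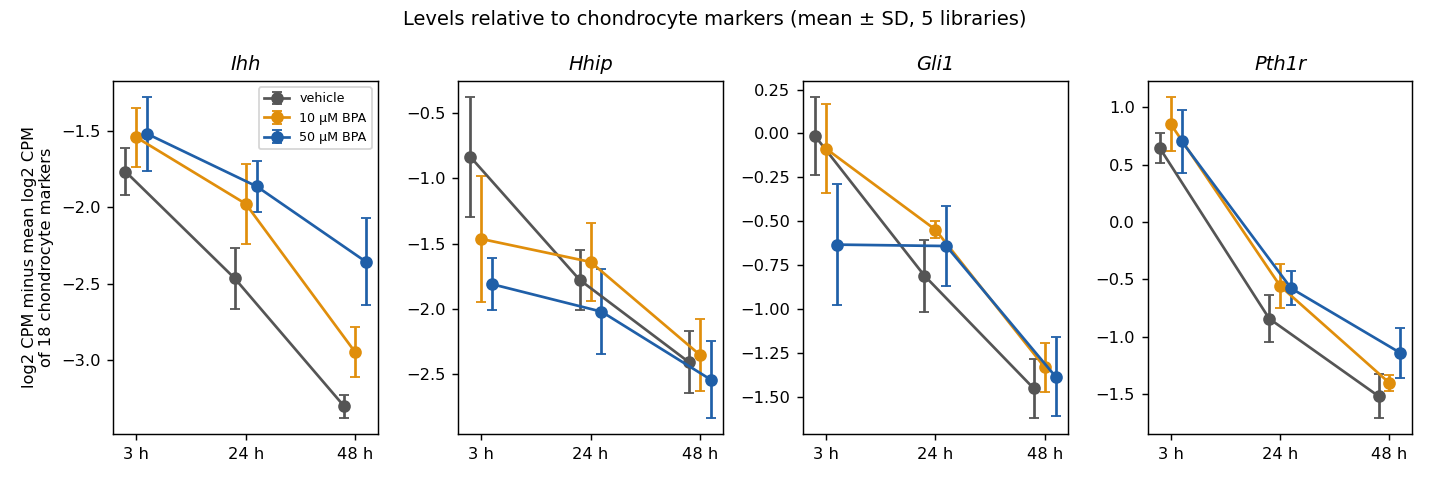
Log2 CPM of Ihh, Hhip, Gli1 and Pth1r minus the mean log2 CPM of 18 chondrocyte markers (vertical axes) at 3, 24 and 48 h; points are means of 5 libraries, error bars 1 SD and lines join the times of 1 dose. All 4 genes decline with time in vehicle, and Ihh ended at -2.36 with 50 µM and -2.95 with 10 µM at 48 h against -3.30 in vehicle.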

How the data were processed

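Counts per gene were used for 45 libraries of poly-A RNA from limb cultures. The deposited counts are whole reads. The submitters' processing notes name build mm10 and the tools STAR 2.5, HTSeq 0.6.1, CASAVA 1.8 and DESeq2 2, with no role for any, and no source here gives the strand of counting. The authors' normalised signal (count over a size factor) and FPKM columns, per the file headers, were not tested. The authors' log2 fold changes and p-values in the deposited tables were used for checks only. The 9 tables held equal counts where they shared libraries (0 of 1345730 values unequal). Genes absent from 1 table of a library had at most 1 read in another table of it, and that value was kept. The 192120 values held in no table of their library were filled with 0. Groups follow the sample titles, also where a treatment-length label gives 24 h for the 50 µM libraries of 3 h.

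Comparisons with vehicle and between vehicle times were fitted on 10 libraries with edgeR 4.0.16 (R 4.3.3, quasi-likelihood test, TMM, minimum count 10, minimum total 15); 50 against 10 µM and interactions came from all 45 libraries. p-values were adjusted by Benjamini-Hochberg over all genes tested, and "called" means an adjusted p under 0.05. SE is the absolute log2 fold change over the square root of the F statistic; log CPM used a prior count of 2. Counts were simulated for the 50 µM comparison at 48 h (16732 genes, 200 of them changed). The test found 61% of 1.5-fold and 70% of 2-fold changes, and 9 of its 140 calls were false. Recovery was 59% and 73% at 3 h, and 55% and 67% at 24 h. Fewer genes were changed in the simulations than were called in the data, so recovery in the data can differ. Alternatives were DESeq2 1.42.0, other scalings and filters, a replicate block, an epidermal and, added after seeing the data, a gene length covariate, and leaving out each library. Same-numbered libraries deviated together (all 5 correlations over 0.1) for 50 µM at 48 h and 10 µM at 24 and 48 h. The main fits held no block in any comparison, also not in these. Their p-values leave a pairing out, and calls that changed with the number as a block are given beside them. The labels do not say what the number marks. The gene lists and the 9 genes were chosen with earlier results of these data known. The rule for names was all 9 genes, up to 4 called genes of smallest p per pathway list and comparison, the 5 genes most correlated with Ihh, Pth1r, Gli1 and Hhip (mean count of at least 50), and Col2a1, Col10a1 and Krt14; Shh, Dhh, Arhgap9, Nog, Ccnd2, Igf1, Fgf18, Trps1, Runx3, Ibsp, Matn3, Sox9, Ucma, Ifitm5, Tnn, Col1a1, Col1a2, Postn, Dlx5, Fmod and Tnmd were named after their values were seen. 1 listed gene that the rule names is not reported here.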

Additional observations from a re-analysis of the deposited data

Results flagged for a closer look

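In 9 of 81 groups of 5 libraries, 1 library stood apart from the other 4 by more than Dixon's critical value of 0.71; chance gives about 1 in 20. Pthlh had 3 of these: 9.49 CPM in 10 µM replicate 3 of 3 h (others 5.09 to 6.24), 7.55 in 50 µM replicate 2 of 3 h (others 3.15 to 4.43) and 11.4 in vehicle replicate 1 of 24 h (others 7.44 to 8.19). Gli3 also had 3, all low: 138 CPM in 10 µM replicate 1 of 48 h (others 169 to 175), 203 in 50 µM replicate 1 of 24 h (highest other 257) and 139.7 in 50 µM replicate 2 of 48 h (others 172 to 184). Gli1 was 115 CPM in 50 µM replicate 4 of 24 h (others 141 to 146). Pth1r was 171 in 50 µM replicate 1 of 24 h (others 134 to 143). Hhip was 67.8 in vehicle replicate 4 of 48 h (others 74.7 to 77.2). The effect of 50 µM BPA on Gli1 differed between times by interaction tests in edgeR, by 0.57 on the log2 scale between 3 and 24 h and by 0.53 between 3 and 48 h (adjusted p = 0.0124 and 0.0101).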

How the results depend on the processing

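Of 135 results (9 genes in 15 comparisons), 24 were called, 19 of them under every alternative, and 14 others were called under some. No called result changed sign; 22 others did under some alternative, with a log2 difference of at most 0.10. With 50 µM BPA at 3 h 2 genes were called, 3 with DESeq2, 4 with the gene length covariate and 2 to 3 with 1 library left out. At 24 h 1 was called, 0 with upper-quartile scaling, 2 with DESeq2, with no filter, with the replicate block, with the epidermal or length covariate and with all 45 libraries in 1 fit, and 0 to 2 with 1 library left out. At 48 h 2 were called, 1 with all 45 libraries in 1 fit, 3 with the replicate block, DESeq2 or the length covariate and 1 to 2 with 1 library left out. With 10 µM at 24 h 0 were called and 1 with the replicate block. In vehicle from 24 to 48 h 1 was called, 2 with DESeq2 or all 45 libraries and 1 to 2 with 1 library left out. Between doses 1 was called at 3 h and at 48 h, and 0 and 2 with only those groups fitted. Among changes of the effect, 1 was called from 3 to 24 h and 0 with only the groups compared; 1 from 3 to 48 h, 3 with DESeq2 or only those groups, 2 with the replicate block and 1 to 2 with 1 library left out. The causes were not tested.

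Counts over all genes moved by more than 1.5 times as follows. For 50 µM at 3 h, 239 became 515 (DESeq2), 729 (length), 463 (45 libraries) and 141 to 289 (1 library left out; lowest without vehicle replicate 3). At 24 h 585 became 917, 1271 and 885 by the same and 1180 with the block, and 345 to 659 with 1 library left out (lowest without 50 µM replicate 4); at 48 h 1536 became 2598 with the block. For 10 µM, 0, 0 and 1 became 14, 17 and 51 with DESeq2, 12, 4 and 14 with 45 libraries and 95 and 37 with the block at 24 and 48 h (58 by library codes, which are exchanged against the titles for 10 µM replicates 1 and 2 of 48 h, so that the numbers there are uncertain; 2 of 5 pairs correlated best with their own number), 3 and 25 with no filter, 6 and 17 with the epidermal covariate, and 0 at 48 h with upper-quartile scaling; 5 were called at 3 h without 10 µM replicate 3, and 0 at 48 h without any 1 of 8 libraries. Between doses, 119 became 208 (DESeq2) and 21 (only those groups) at 3 h and 152 became 259 (DESeq2) at 24 h; the change of the effect from 3 to 24 h went from 114 to 206 (DESeq2) and 183 (block). With 1 library left out, counts also fell to 144 to 156 without 50 µM replicates 1, 2, 4 or 5 and to 151 without vehicle replicate 1 at 3 h, and to 351 to 366 without vehicle replicates 3, 4 or 5 or 50 µM replicates 2 or 5 at 24 h. Between doses they fell to 73 or 78 (50 µM replicate 1, 10 µM replicate 3) at 3 h, to 65 to 94 (10 µM replicates 2, 3 or 5, 50 µM replicates 4 or 5) at 24 h and from 604 to 386 (50 µM replicate 1) at 48 h; the change of the effect from 3 to 24 h rose to 172 without vehicle replicate 1 of 24 h. From 24 to 48 h 0 became 2 (DESeq2), 1 (no filter) and 0 to 2 (1 library left out). With 50 µM, 3 of 5 same-numbered pairs at 3 h and 4 of 5 at 24 h had a correlation over 0.1, and 3 and 4 correlated best with their own number, so pairing is not settled there; with the block at 24 h, Hhip passed (adjusted p = 0.00437). Beyond the changes given here and beside the results, the block changed no call. Of the 9 genes, Pthlh had the library with the fewest reads, 77; how far depth limits each gene was not tested.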
